A study of Mus musculus with 6 samples.

Results

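The limb and mesenchyme patterning factors described here are 10 transcription factor genes: Tbx4, Pitx1, Tbx15, Tbx18, Prrx1, Prrx2, Twist2, Hand2, Lmx1b and Meis2. They were chosen by name from genes already known to have differential open chromatin regions linked to them in these data, so their counts of linked regions describe the choice. They are 10 of 21883 protein-coding genes, and 16 of the 3521 differential regions were linked to them. The cells were mouse embryonic fibroblasts taken on embryonic day 13.5. The mutant cells, called FOP, were Acvr1R206H/+, that is, heterozygous for the R206H change in the BMP type I receptor ALK2 that underlies fibrodysplasia ossificans progressiva, in which bone forms in soft tissue. The wild-type (WT) cells were Acvr1+/+. Both were grown in the same serum-containing medium with no further treatment named. There were 3 ATAC-seq libraries of FOP cells and 3 of WT cells, which the study calls biological replicates. The mouse strain, the sex, the part of the embryo used and whether each library came from its own embryo are not stated in the labels.

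ATAC-seq tags open DNA with a transposase. The deposited data are a list of regions more accessible and a list of regions less accessible in FOP than in WT cells, given as positions alone. Counts, sizes of change and p-values are not part of these lists. No region could therefore be weighed against replicate error, and depth is unknown. The cell type label cannot be checked against expression either. A bulk assay cannot tell apart a larger share of cells with an open site and a site that is more open in each cell. In the text, a gained region is one listed as more accessible in FOP cells, and a lost region is one listed as less accessible.

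These genes lay out the limb bud and the connective tissue that fills it. Pitx1, a homeodomain factor, sets hindlimb rather than forelimb character. Tbx4, a T-box factor that acts downstream of Pitx1, is a factor of the hindlimb bud and also marks lung mesenchyme. Prrx1 and Prrx2 are paired-related homeodomain factors of limb bud and facial mesenchyme, and Twist2 is a basic helix-loop-helix (bHLH) factor of dermal and other mesenchymal progenitors. Hand2, another bHLH factor, acts in the posterior limb bud upstream of Sonic hedgehog, Lmx1b gives the limb its dorsal side, and Meis2 marks its proximal part. Such genes are often controlled by enhancers that lie far from the promoter, within neighbouring genes or in long gene-free stretches.

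The promoters are shown because no listed region touched one of those that could be matched. RefSeq (GRCm38.p6) promoter windows, from 250 bases before to 50 after the transcription start, were matched for 8 of the 10 genes; Pitx1 and Tbx15 were not matched. Over the whole genome such windows covered 17491 of the 21883 protein-coding genes. Of the 3521 listed regions, 9 (0.256%) overlapped any of these windows, and 0 overlapped one of the 8 matched genes. Overlap with promoters of the genes without a window could not be counted. The windows of the matched genes with at least 2 linked regions are printed 5′ to 3′, with capitals marking the motifs searched, apart from the general E-box. They lie at chr11:85896515-85896814 on the plus strand (Tbx4), chr1:163313601-163313900 on the minus strand (Prrx1) and chr1:91801211-91801510 on the plus strand (Twist2). The Tbx4 window surrounds a start inside the gene's span, not the beginning of the span.
Tbx4: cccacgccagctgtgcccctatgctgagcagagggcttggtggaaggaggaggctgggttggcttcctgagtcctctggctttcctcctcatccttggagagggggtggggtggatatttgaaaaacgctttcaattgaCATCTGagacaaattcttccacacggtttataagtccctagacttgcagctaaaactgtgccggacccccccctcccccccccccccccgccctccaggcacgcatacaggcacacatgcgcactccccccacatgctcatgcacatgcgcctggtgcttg
Prrx1: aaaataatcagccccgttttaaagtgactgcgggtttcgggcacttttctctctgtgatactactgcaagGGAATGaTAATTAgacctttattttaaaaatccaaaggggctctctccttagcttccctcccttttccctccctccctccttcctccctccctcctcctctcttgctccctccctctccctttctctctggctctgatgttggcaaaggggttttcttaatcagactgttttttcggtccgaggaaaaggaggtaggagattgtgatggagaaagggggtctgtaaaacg
Twist2: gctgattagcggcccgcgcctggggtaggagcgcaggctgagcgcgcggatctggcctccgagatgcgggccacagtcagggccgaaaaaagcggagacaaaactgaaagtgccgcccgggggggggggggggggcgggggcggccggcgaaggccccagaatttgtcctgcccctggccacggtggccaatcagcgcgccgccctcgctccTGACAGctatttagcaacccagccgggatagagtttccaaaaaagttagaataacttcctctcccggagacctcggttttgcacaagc

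In these windows the capitals are CATCTG in Tbx4, an E-box of the kind bound by TWIST and HAND factors, GGAATG (the TEAD motif) and TAATTA (a homeodomain core) side by side in Prrx1, and TGACAG (the MEIS motif) in Twist2. Both strands were searched. CATCTG was in 3 of the 8 matched promoters (Tbx4, Tbx18 and Hand2) and in 14.6% of 21262 promoter windows of protein-coding genes. It is 1 form of the general E-box CANNTG, which was in 4 of the 8 and in 69.0% of all windows, with 6 matches in Tbx4. TAATTA was in 2 (Prrx1 and Hand2), against 4.53% of all windows, and TGACAG was in 2 (Twist2 and Tbx18), against 18.7%. GGAATG was in Prrx1 and in 13.6% of all windows, and GGCGCC, a BMP-SMAD motif, was in Hand2 and in 15.3% of all windows. The T-box motif AGGTGTGA (1.15% of all windows), the PITX motif GGATTA (6.42%), the AP-1 motif TGANTCA (6.99%) and the RUNX motif TGTGGT (15.0%) were in 0 of the 8. The promoters differed in base composition. CpG observed over expected was lowest in Tbx4 (0.314) and Prrx1 (0.36) and highest in Hand2 (0.897), with a median of 0.756 in the 8 members and 0.567 in all windows. These letters describe the windows and do not show binding.

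All 16 linked regions were gained regions, and 0 lost regions were linked to any of the 10 genes. A region was linked to a gene when its midpoint lay inside the gene's span, or outside all protein-coding spans with that gene nearest within 100 kb. Tbx4 had 4 linked gained regions, Prrx1, Twist2 and Tbx15 had 2 each, and Pitx1, Prrx2, Tbx18, Hand2, Lmx1b and Meis2 had 1 each. Of all 21883 protein-coding genes, 7.27% had at least 1 linked gained region, 2.07% had at least 2, 0.283% had at least 4, and 1.99% had at least 1 linked lost region. The median was 1 linked gained region in the members and 0 over all genes. The members were chosen because they had such regions, so these shares describe them and test nothing. Just inside that choice stand the 6 genes with 1 region. Just outside it stand genes of the same families with no linked region. Examples are Tbx5, the forelimb counterpart of Tbx4, and Twist1, the closest relative of Twist2. Within 500 kb, Tbx5 had 0 gained regions and Twist1 had 4.

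**Figure D1:**
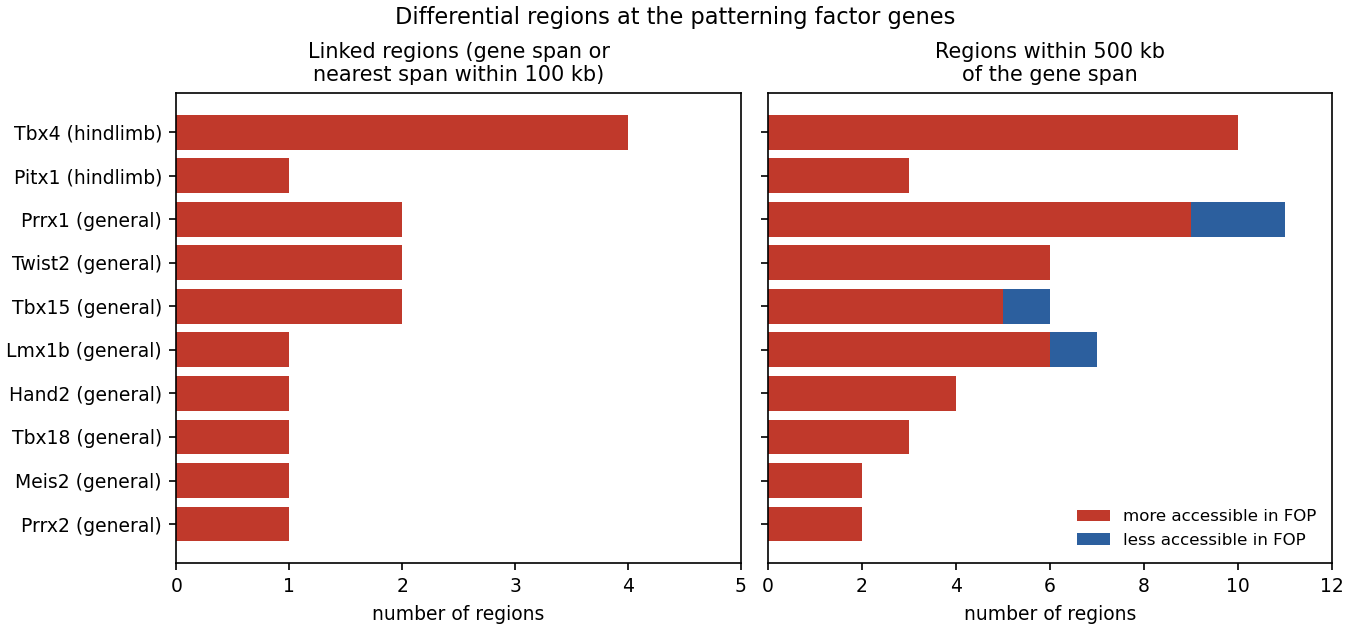
Number of differential regions for each of the 10 genes, hindlimb factors above general mesenchymal factors. The left panel counts linked regions and the right panel counts regions with a midpoint within 500 kb of the gene span, with the more accessible part of each bar first and the less accessible part after it. Tbx4 has 4 linked regions, and less accessible regions (4 in all) appear in the right panel at Prrx1, Tbx15 and Lmx1b.

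The members also had more DNA that could link to them than a typical gene. The territory of a gene, its span plus the flanking bases nearest to it within 100 kb, had a median of 178 kb in the members and 45.8 kb over all genes. It was above that all-gene median in 10 of 10 members. Per Mb of territory the members had 8.92 linked gained regions and all genes together had 1.2. Each member was chosen for having at least 1 such region, so this contrast describes the choice. Among the 9761 genes with a territory in the members' range, 48.7 to 348 kb, 11.6% had at least 1 linked gained region, 2.78% had at least 2 and 0.195% had at least 4. Set beside members chosen for such regions, these shares test nothing either. The part of territory size in the members' counts was not tested further.

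Tbx4 stood highest among the members. Its gene (chromosome 11, 85886367 to 85916097, GRCm38) had no region inside it and 4 outside, within a territory of 123 kb, or 32.5 regions per Mb of territory. The first, chr11:85873880-85874412, lay 22.6 kb upstream of the transcription start and 12.2 kb from the gene span. The start used, at 85896765, lies inside the span and not at its beginning. The other 3 lay past the far end of the gene: chr11:85923213-85923484 and chr11:85926643-85927039 at 26.6 and 30.1 kb downstream of the start, 3.49 kb apart, and chr11:85984277-85984616 at 87.7 kb. Linked regions therefore flanked the gene on both sides, with the closest 7.25 kb from it. Of the 17095 genes with a territory no larger than that of Tbx4, 2 had 4 or more linked gained regions, Tbx4 itself and Cmpk2, a nucleotide kinase gene.

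Within 500 kb, Tbx4 had 10 gained and 0 lost regions. Only 0.119% of all genes had at least as many gained regions. Of the 6 that were not linked to it, 4 lay inside Bcas3, the long gene next to Tbx2, at 131, 171, 173 and 458 kb from Tbx4. Another lay inside Brip1, a DNA repair helicase gene, at 173 kb, and the last lay 92.2 kb from Tbx4 but nearer to Brip1. Tbx2, a T-box gene of the limb margins that lies 44.4 kb from Tbx4, had 0 linked regions and shares the same 10 gained regions in its own 500 kb window. The position of a region cannot tell apart Tbx4, Tbx2, Bcas3 and Brip1 as its target.

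Pitx1 (chromosome 13, 55825044 to 55836190), the other hindlimb factor, had 1 linked region, chr13:55858970-55859395, 23.0 kb from the gene on the side of higher coordinates. Its territory was 111.6 kb, close to that of Tbx4. Within 500 kb it had 3 gained and 0 lost regions, and 13.3% of all genes had at least as many. The other 2 were at 227 kb, near Macroh2a1, which encodes a variant histone, and at 486 kb, near the chemokine gene Cxcl14. All 3 were on the same side of Pitx1, as the map of positions shows.

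**Figure D2:**
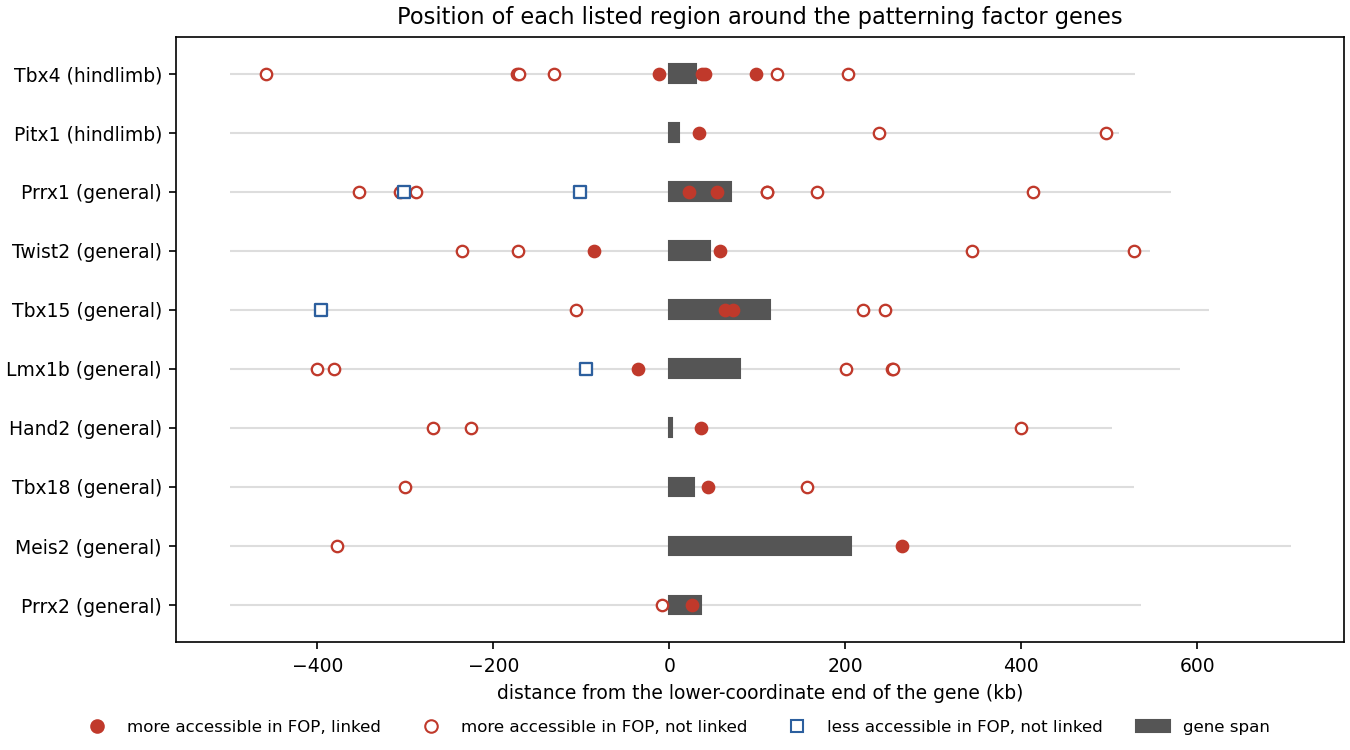
Position of every listed region within 500 kb of each gene. The horizontal axis is the distance in kb from the lower-coordinate end of the gene, dark boxes are gene spans to scale, filled circles are linked more accessible regions, open circles are other more accessible regions and open squares are less accessible regions. Tbx4 has 10 circles on both sides of the gene, while the 3 of Pitx1 all lie to the right.

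Among the general mesenchymal factors, Prrx1 had the most regions around it. Prrx1 (chromosome 1, 163245119 to 163315145) held both of its linked regions inside the gene, chr1:163266852-163267829 and chr1:163299271-163300078, 46.3 and 14.0 kb downstream of the start. The annotation used gives no exons, so exon and intron cannot be told apart. Upstream of Prrx1, 3 further gained regions at 42.2, 42.8 and 99.1 kb from its start were linked to the nearer Gorab, a Golgi protein gene, and the pair at 42.2 and 42.8 kb had midpoints 0.636 kb apart. Within 500 kb Prrx1 had 9 gained regions, a count reached by 0.251% of all genes, and 2 lost regions. The lost ones lay 102 and 301 kb away, on the side past the end of the gene. The farther one lay outside protein-coding genes, 6.28 kb from Fmo6, and a gained region lay 1.1 kb from the same gene.

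Prrx2, its paralogue on chromosome 2 (30845064 to 30881251), had 1 region inside the gene, chr2:30870821-30871413, 25.8 kb downstream of the start. A second gained region, chr2:30836268-30837013, lay 8.73 kb upstream of the start. It was linked to Asb6 because that gene is 83 bp closer. These were the only 2 listed regions within 500 kb of Prrx2, and 26.1% of all genes had at least as many gained regions.

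Twist2 (chromosome 1, 91801461 to 91848034), like Tbx4, had its regions outside the gene and on both sides of it. They were chr1:91715189-91715867, 85.9 kb upstream of the start, and chr1:91857965-91858958, 57.0 kb downstream of it and 10.4 kb past the end. Within 500 kb it had 6 gained and 0 lost regions (1.84% of genes had at least as many gained). Hand2 (chromosome 8, 57320983 to 57324517) had 1 linked region, chr8:57355890-57357218, 35.6 kb downstream of the start. A further 2 regions with Hand2 as the nearest gene, at 226 and 268 kb upstream, were beyond the 100 kb limit. In all Hand2 had 4 gained and 0 lost regions within 500 kb.

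The T-box genes Tbx15 and Tbx18, which act in skeletal and dermal development and in somite and ureter mesenchyme, differed in where their regions lay. Tbx15 (chromosome 3, 99240348 to 99354260) had both linked regions inside the gene, chr3:99303160-99303921 and chr3:99312087-99312617, 8.81 kb apart. Within 500 kb it had 5 gained and 1 lost region, and the lost one lay 396 kb away in Hsd3b1, a steroid dehydrogenase gene. Tbx18 (chromosome 9, 87702800 to 87731260) had 1 linked region, chr9:87746923-87747376, 15.9 kb upstream of its start and inside the non-coding gene Gm36767. Within 500 kb it had 3 gained and 0 lost regions. Tbx18 lies in a stretch with 447.3 and 596.3 kb to the next protein-coding genes on either side.

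Lmx1b (chromosome 2, 33560965 to 33641208) had 1 linked region, chr2:33525437-33526106, 35.2 kb past the end of the gene and inside the non-coding gene Gm33642. Within 500 kb it had 6 gained regions and 1 lost region. Of the gained ones, 3 lay upstream inside Mvb12b, a gene of endosomal sorting, 120 to 174 kb from the start of Lmx1b, and 2 lay inside Ralgps1. The lost region lay inside Zbtb43, a zinc finger gene, 94.8 kb from Lmx1b, and was the lost region closest to any of the 10 genes. Meis2 (chromosome 2, 115861264 to 116067537), the longest of the genes at 206.3 kb, had none inside it. Its 1 linked region, chr2:116125567-116126108, was 61.2 kb upstream of the start, and the only other within 500 kb was 378 kb away on the other side.

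Taking the 10 genes together, 54 listed regions lay within 500 kb, 50 gained and 4 lost. The gained share was 92.6% (exact Clopper-Pearson 95% interval 82.1 to 97.9%, counting error only) and 84.1% of the other 3467 regions (82.8 to 85.3%). The intervals overlap, and the difference was not tested, since members were chosen for their gained regions. At least 1 gained region lay within 500 kb of 10 of 10 members and of 49.9% of all genes. The count of 10 was fixed by the choice, since each member was chosen for a linked gained region. At least 1 lost region lay within that distance of 3 of 10 members and of 25.5% of all genes. The median number of gained regions within 500 kb was 4.5 in the members and 0 over all genes, whose 90th percentile was 3. The members' numbers include the linked regions they were chosen for, so this contrast describes the choice too. Of the 50 gained regions, 5 were inside a member, 11 within 50 kb outside it, 5 at 50 to 100 kb, 15 at 100 to 250 kb and 14 at 250 to 500 kb. The lost regions all lay beyond 50 kb, with 1 at 50 to 100 kb, 1 at 100 to 250 kb and 2 at 250 to 500 kb. Of the 34 gained regions in the windows that were not linked to the member, 13 lay inside another gene, 16 lay outside genes but nearer to another one, and 5 had the member as nearest gene but beyond 100 kb.

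**Figure D3:**
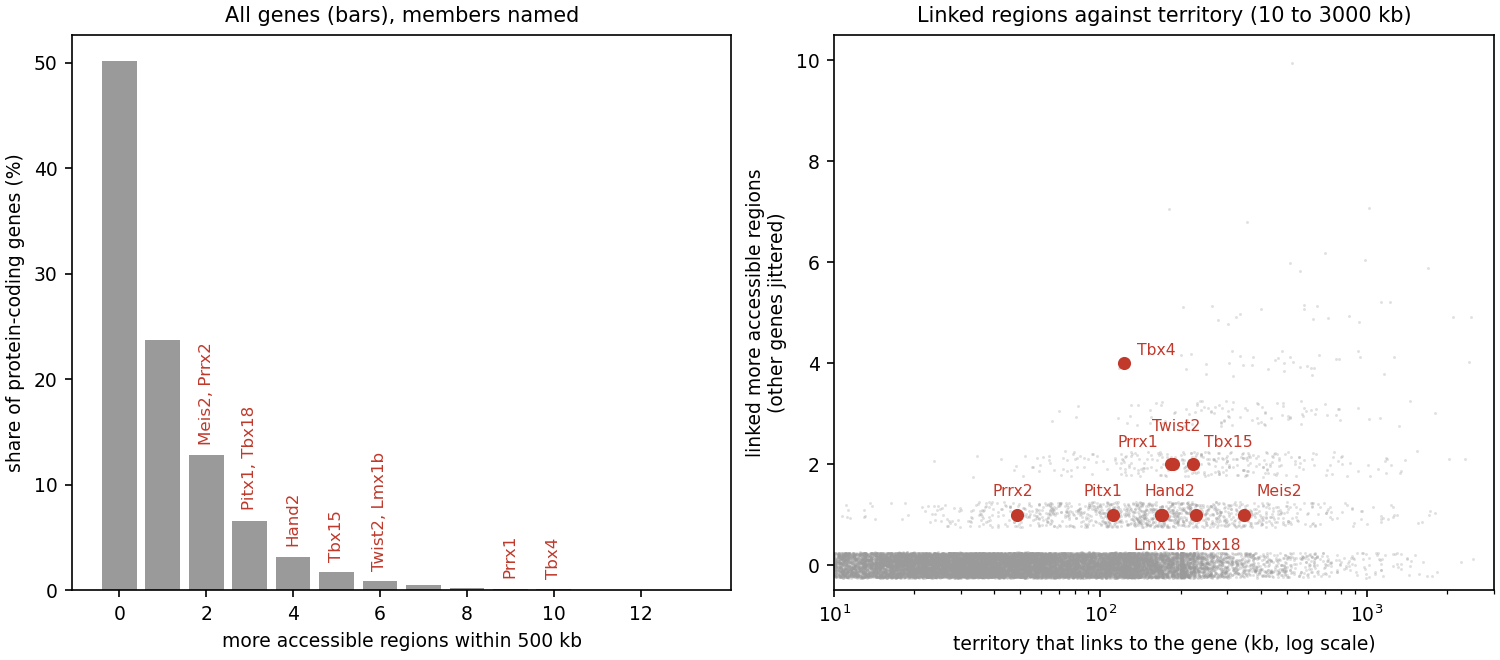
The left panel shows the share of protein-coding genes with each number of more accessible regions within 500 kb, with the members named at their own number. The right panel plots linked more accessible regions against the territory that can link to a gene on a log axis, with members in red and other genes in grey. Prrx1 (9 regions) and Tbx4 (10 regions) stand at the thin right end of the left panel, and Tbx4 has 4 linked regions on 123 kb.

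The hindlimb pair had more linked gained regions per gene than the general mesenchymal factors, and that difference rests on Tbx4. The 2 hindlimb genes had 5 linked gained regions, 2.5 per gene, and the 8 general mesenchymal genes had 11, or 1.38 per gene (1 to 2 each), a difference of 1.12 per gene. Per Mb of territory the values were 21.3 for the hindlimb genes and 7.05 for the general mesenchymal genes, and without Tbx4 the hindlimb value was 8.96, that of Pitx1. Within 500 kb the hindlimb genes had 13 gained regions, 6.5 per gene, and 0 lost, while the general mesenchymal genes had 37, or 4.62 per gene (2 to 9 each), and 4 lost. The hindlimb genes did not behave as a pair, since Tbx4 had 4 linked regions and Pitx1 had 1. Without Tbx4 the difference per gene turned to -0.375 for linked regions and -1.62 within 500 kb. With 2 genes in the hindlimb class, chosen with their counts known, no test was made and no hindlimb pattern is shown by these counts.

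Width is a property that the choice of genes did not use, and the regions linked to hindlimb genes were on average narrower than those linked to general mesenchymal genes. The 5 regions linked to hindlimb genes were 272, 340, 397 and 533 bp wide at Tbx4 and 426 bp at Pitx1, a mean of 394 ± 97.7 bp (SD over regions). The 11 linked to general mesenchymal genes averaged 758 ± 258 bp (SD over regions), the narrowest being 454 bp at Tbx18 and the widest 1329 bp at Hand2. All 5 hindlimb regions were narrower than the median of all 2965 gained regions, 572 bp, and 3 of the 11 others were. The 2 sets overlap between 454 and 533 bp. Over all gained regions within 500 kb, the median width was 415 bp at Tbx4 but 578 bp at Pitx1. Among the general mesenchymal factors it was 454 bp at Tbx18 and between 577 and 803.5 bp at the others. Regions at 1 gene are not replicates, and 4 of the 5 hindlimb regions are those of Tbx4, so no test was made. Among all gained regions 35.9% were under 500 bp, and with these left out the hindlimb genes kept 1 of 5 linked regions and the general mesenchymal genes 10 of 11. The hindlimb minus general mesenchymal difference was then -0.75 per gene, both for linked regions and within 500 kb. The lists give no score, so width was the only property by which regions could be held to a stricter limit, and a narrow region need not be a weak one.

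**Figure D4:**
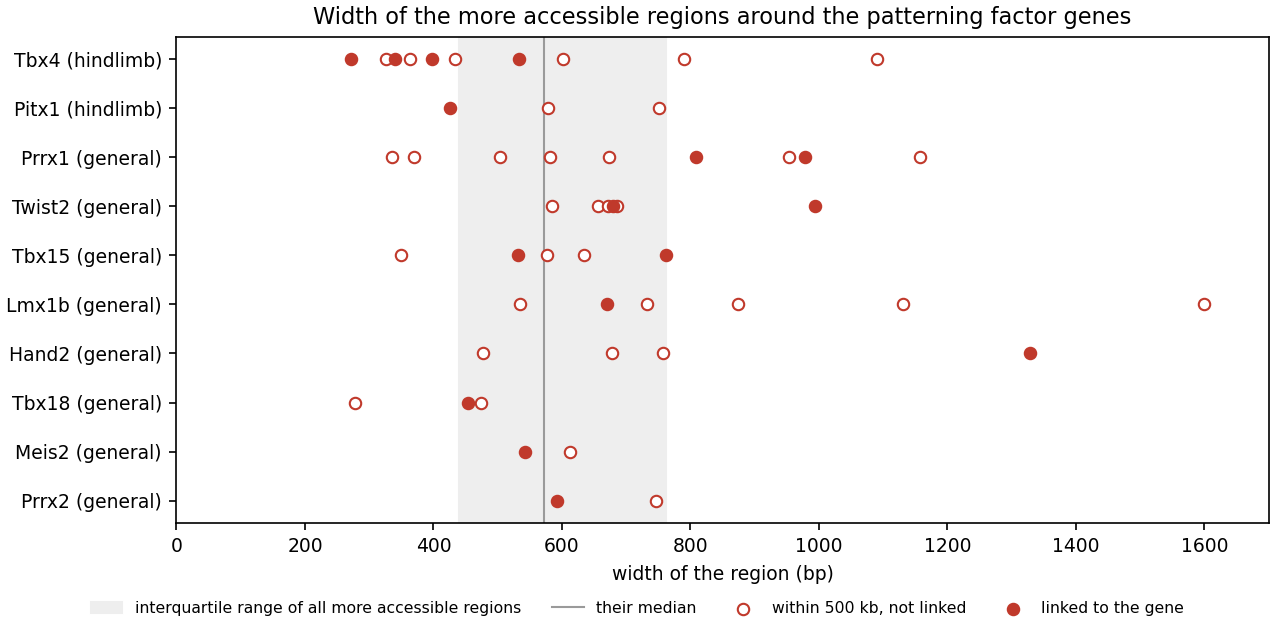
Width in bp of each more accessible region within 500 kb of each gene, with linked regions filled and others open. The grey band is the interquartile range of all 2965 more accessible regions, 439 to 762 bp, and the line is their median of 572 bp. The linked regions of Tbx4 and Pitx1 lie to the left of the line, and those of Prrx1 and Twist2 lie to the right of it.

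The linked regions stood away from transcription starts, a trait shared with the lists as a whole. Of all 3521 listed regions, 9 (0.256%) overlapped a promoter window. Distances to the start are not given here for all gained regions. For the 8 genes with a known strand, 13 regions were linked, 4 upstream and 9 downstream of the start, at 14.0 to 115 kb from it with a median of 35.6 kb. Of all 16 linked regions, 5 (31.2%) lay inside the member gene, in Prrx1, Prrx2 and Tbx15. The other 11 linked regions lay 7.25 to 85.9 kb outside the gene, with a median of 23.0 kb. Of all gained regions, 45.3% lay inside a protein-coding gene. That share also counts gained regions too far from any gene to be linked, so it is not directly comparable with the 31.2%. The share inside genes among the linked gained regions of all genes is not given here. A gained neighbour within 10 kb was found for 4 of the 16, the close pairs of Tbx4 and of Tbx15, and for 345 of all 2965 gained regions (11.6%). The median distance to the next gained region was 41.9 kb for the linked regions and 121 kb for all gained regions. The members were chosen with their counts known, and genes with several linked regions bring close neighbours with them. The spacing therefore follows in part from the choice.

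By the same measure, few genes had the pattern of Tbx4, with at least 4 linked gained regions, no lost one and none inside the gene. These were Adgrg2, an adhesion receptor gene on chromosome X, and Cmpk2, with 4 each. Another 19 genes had 3, of which Ackr3, a chemokine scavenging receptor gene, Ahr, the aryl hydrocarbon receptor gene, and Cdc42bpa, a kinase gene, come first in alphabetical order. Likeness here is in counts over 2 lists only.

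Most related patterning genes had no linked region, as is so for most protein-coding genes. Over the limb and mesenchyme lists (87 genes), 77 were not members, and 10 of these 77 (13.0%) had a linked gained region and 1 (1.3%) a linked lost region, against 7.27% and 1.99% of all genes. Of 14 other T-box genes, 1 had a linked gained region, Tbx19, a pituitary factor. Tbx5 and Isl1, an early hindlimb factor, had 0 linked regions and 0 listed regions within 500 kb. Of the other paired-related and PITX genes, 0 of 6 had one, and of the other LIM homeobox genes 0 of 5. With 7.27% of all genes having one, counts of 0 in lists this small are near the background. Msc, a bHLH repressor gene, had 1, the only one of 6 other genes of the TWIST and HAND type list. In the TALE homeobox list, Pbx3, which encodes a partner of MEIS and HOX proteins, and Pknox2 had 1 each. Meis1, the paralogue of Meis2, had 0 linked regions and 1 lost region within 500 kb.

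Among 23 limb axis factors and signals, 5 (21.7%) had linked gained regions and 1 (4.35%) a linked lost region, against 7.27% and 1.99% of all genes. Gli3, the transcription factor that restrains hedgehog responses in the anterior limb bud, had 4, as many as Tbx4, on a territory of 466.3 kb. Msx2, a BMP-responsive homeobox gene, and Osr1, a factor of connective tissue progenitors, had 2 each, and Dlx6, a homeobox gene of the distal limb and jaw, and Etv5, an effector of FGF signalling, had 1 each. Msx1, the paralogue of Msx2, was the gene with a linked lost region; it had 1 lost and 0 gained regions linked to it, but 7 gained regions within 500 kb.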

How the data were processed

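Mouse embryonic fibroblasts were profiled by ATAC-seq in 3 FOP and 3 WT libraries. A kit was used for tagmentation and reads were paired-end, per the labels' protocols. The deposited lists hold positions, not measured values: the start and end of each region in base pairs, with the direction in the list's name. Per the submitters' processing notes, the authors' builds were mm10 and GRCm38 and their tools were DESeq2, featureCounts, MACS2, bedtools, SAMtools, Bowtie2 and Trimmomatic; the sources used here do not give parameters, cutoffs, pooling or the transposase offset. Depth per library is unknown.

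Starts were converted to count from 1. Midpoints were linked to 21883 protein-coding spans on chromosomes 1 to 19, X and Y of RefSeq GRCm38.p6 (100 kb limit), or counted within 500 kb, in Python 3.11.15 (pandas 2.3.3, SciPy 1.17.1). Linking was checked on planted positions. The members and gene lists were chosen with earlier results of these data known. Genes named are the members, list genes with a linked region, genes near regions in the members' windows and those most like Tbx4 in counts; Tbx2, Tbx5, Isl1, Twist1 and Meis1 were named after their values were seen. 1 listed symbol, Musc, had no match. With no value per library, no test between genotypes was possible. Alternatives were link distance and reference, window, merging, width, non-coding genes and leaving out Tbx4. Results for a few genes taken by this rule do not appear in the text.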

Additional observations from a re-analysis of the deposited data

How the results depend on the processing

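The 16 linked gained regions and the 0 linked lost regions were the same with links by the nearest gene end or by any overlapping base. Merging regions within 10 kb left 14 linked gained regions, and links at any distance gave 21. Links within 10 kb left 6, at 4 of the members, since most lie farther out. Letting non-coding genes compete for links, a choice made after seeing the data, left 11 at 6 of the members. The hindlimb minus general mesenchymal difference (1.12 linked gained regions per gene) turned to -0.125 with links within 10 kb, to -0.75 with regions of at least 500 bp and to -0.375 without Tbx4, and was 0.5 with links at any distance. Within 500 kb (1.88 per gene) it turned to -0.75 with regions of at least 500 bp and to -1.62 without Tbx4, and was 0.625 with a window of 1000 kb. The 4 lost regions within 500 kb became 2 in a window of 250 kb and 7 in 1000 kb. The 10 related genes with a linked gained region became 3 with links within 10 kb and 6 with non-coding genes. The 1 with a lost region became 2 with links at any distance and 0 with non-coding genes. Leaving out Tbx4 was chosen after seeing the data. Leaving out libraries could not be run, and motifs over whole regions were not run, as no region sequence was used here. No paired analysis was possible because the lists carry no value per library. Depth limits which regions could pass the authors' test, and it is unknown.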

Other observations

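The HOX genes of the distal limb and posterior body, which give positional identity to fibroblasts in culture, had no linked region: 0 of 15 genes in the list, where 7.27% of all genes had a linked gained and 1.99% a linked lost region. At those shares a count of 0 in 15 genes is near the background. No listed region lay inside the HoxA, HoxC or HoxD cluster. Around the clusters, within 500 kb, there were 6 gained regions at HoxA, 2 at HoxC and 4 at HoxD, and 0 lost regions at each. The closest gained region lay 157 kb from HoxA, 256 kb from HoxC and 48.0 kb from HoxD. Territories in the list ran between 5.3 kb for Hoxd12 and 34.9 kb for Hoxa13, apart from Hoxc13 at 111.2 kb. The median over all genes was 45.8 kb, so all but Hoxc13 had less DNA that could link than the median gene. The shares over all genes are not matched for territory.

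Of 10 fibroblast marker genes, 2 had linked gained regions, Lum with 2 and Dcn with 1, both encoding small proteoglycans of the collagen matrix, and 0 had a lost one. Over all genes the shares were 7.27% with a linked gained and 1.99% with a linked lost region. Markers of skeletal muscle and of epithelium (5 genes each) had 0 linked regions. Of 5 markers each, endothelium had 1 with a linked lost region (Cdh5), blood 2 (Itgam and C1qa) and neural cells 2 (Pax6 and Nes), and none of the 3 lists had a linked gained region. With 5 to 10 genes a list these counts are small, and the positions give no level of any marker.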
